A study of Mus musculus with 9 samples.

Results

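The constitutive proteasome subunit genes are the genes whose symbols begin with Psma, Psmb, Psmc or Psmd followed by a digit, with Psmb8, Psmb9 and Psmb10 left out. The rule found 36 genes on 65 probe sets, of 12393 genes with a single symbol on 22690 probe sets. Of these, 15 are core genes (Psma and Psmb) and 21 are cap genes (Psmc and Psmd). Each probe set gives 1 signal for the transcript its short probes match, and each gene was read from its probe set of highest mean. Of the 36 genes, 34 passed a filter on dim probe sets (a mean signal of at least 741 over all arrays, the geometric mean) and were tested. The 2 that did not were Psma8, the testis form of an outer-ring subunit, with signals of 33.8 to 227.9, and Psmc3ip, a meiotic recombination gene that shares only the prefix, with 529.9 to 876.8.

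The mice were C57BL/6J males of 56 days, 9 in all, and RNA of the striatum was read on 1 single-colour array each. There were 3 mice injected with saline (Control), 3 with methamphetamine (METH), a psychostimulant that damages dopamine terminals at high doses, and 3 with MPTP, whose brain metabolite is taken up by dopamine neurons. Both agents serve as mouse models of Parkinson's disease. The tissue was left and right striatum, and no dose, schedule or time of dissection was found in the labels. Arrays within a group are labelled as biological replicates.

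The proteasome is the protease that breaks down most short-lived and misfolded proteins marked with ubiquitin. Its barrel-shaped core has outer rings of alpha subunits (Psma genes), which gate the entry, and inner rings of beta subunits (Psmb genes), 3 of which carry the active sites. A cap on the end of the barrel holds a ring of ATPases (Psmc genes), which unfold the substrate, and further subunits (mostly Psmd genes) that bind ubiquitin chains and cut them off. Loss of proteasome function has long been studied in Parkinson's disease, in which ubiquitin-marked protein deposits form in dopamine neurons.

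The array medians lay between 1110.5 and 1233, with METH 2 highest, and Spearman correlations between arrays were 0.97 to 0.985. METH 2 also had the narrowest distribution, with 6.25 log2 units from its 10th to its 90th percentile where the other arrays had 6.4 to 6.69. Spiny neuron markers were well above the filter on every array, 6 of the 6 found on the array, among them Ppp1r1b at 27711 to 35822 and Penk at 47496 to 59113. Choroid plexus markers varied widely within every group, and their summed signal over 6 genes ranged from 13314 to 69172 over Control arrays, from 10021 to 53166 over METH arrays and from 4220 to 35567 over MPTP arrays. In whole tissue, fewer cells of a type and less RNA per cell cannot be told apart.

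Promoter sequence was available for 29 of the 36 genes in the RefSeq table of build GRCm38.p6, and the windows here are the 250 bases before the annotated start. The sequences below belong to the 3 genes whose METH and MPTP arrays all lay below all Control arrays (Psma7, Psmb6 and Psmc4) and to Psmb5, a catalytic subunit gene like Psmb6. Their positions are chr2:180042465-180042714 on the minus strand for Psma7, chr14:54617996-54618245 on the minus strand for Psmb5, chr11:70525107-70525356 on the plus strand for Psmb6 and chr7:28050093-28050342 on the minus strand for Psmc4. Each is printed 5′ to 3′ on the strand of the gene, and capitals mark a match to TGACNNNGC, the core of the antioxidant response element bound by Nfe2l1 and Nfe2l2, or to CCAAT, the box bound by NF-Y.
Psma7: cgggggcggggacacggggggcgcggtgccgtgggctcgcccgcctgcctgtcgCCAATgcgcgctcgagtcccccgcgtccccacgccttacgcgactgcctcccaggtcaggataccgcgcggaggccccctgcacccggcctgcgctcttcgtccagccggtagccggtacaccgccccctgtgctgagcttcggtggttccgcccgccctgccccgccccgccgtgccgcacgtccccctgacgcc
Psmb5: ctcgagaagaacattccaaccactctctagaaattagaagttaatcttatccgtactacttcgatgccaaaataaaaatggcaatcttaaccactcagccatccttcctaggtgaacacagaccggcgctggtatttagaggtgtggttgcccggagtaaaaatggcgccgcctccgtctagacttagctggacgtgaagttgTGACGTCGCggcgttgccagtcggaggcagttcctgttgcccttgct
Psmb6: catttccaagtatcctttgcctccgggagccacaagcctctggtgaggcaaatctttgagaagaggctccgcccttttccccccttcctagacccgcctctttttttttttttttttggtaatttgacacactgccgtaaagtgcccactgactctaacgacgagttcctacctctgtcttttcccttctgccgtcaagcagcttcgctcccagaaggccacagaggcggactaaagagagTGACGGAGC
Psmc4: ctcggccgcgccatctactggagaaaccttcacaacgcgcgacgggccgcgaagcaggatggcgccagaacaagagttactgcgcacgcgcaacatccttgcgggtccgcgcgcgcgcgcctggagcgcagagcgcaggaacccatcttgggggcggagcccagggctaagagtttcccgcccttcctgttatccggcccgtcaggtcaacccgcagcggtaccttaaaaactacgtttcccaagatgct

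TGACNNNGC was searched on both strands and stood in 5 of 31 member windows (16.1%), against 10.2% of all 32851 windows of the same length. It begins 47 bases before the start of Psmb5 and 9 bases before that of Psmb6. The other windows with a match were those of Psmc6, Psmd12 and Psmd9. CCAAT was also searched on both strands and stood in 12 of 31 member windows (38.7%) against 33.8% of all windows. It lies 196 bases before the start of Psma7, and the Psmc4 window had neither motif. The 5 genes with TGACNNNGC had log2 differences of -0.19 (Psmd12), -0.13 (Psmb5), -0.11 (Psmb6), 0.01 (Psmc6) and 0.17 (Psmd9) in METH against Control. A match describes the letters only and is not evidence of binding.

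After METH most proteasome subunit genes had slightly lower signals than in Control, and no single gene passed the test. The 14 core genes tested all had a log2 difference below 0, from -0.29 (Psma5) to -0.04 (Psma4), with a median of -0.12. The count was 13 of 14 under several alternatives, in which Psma4, Psma6 or Psmb1 was above 0, and 11 of 13 with the mean of all probe sets of a gene. Of the 20 cap genes 14 were below 0, from -0.22 (Psmc4), and 6 above, up to 0.31 (Psmd13), with a median of -0.09. One of the 14, the lid gene Psmd11, was at 0.00. Over all 7964 genes tested the share below 0 was 49.7% and the median was 0.00. With limma 0 of 34 members had an adjusted p under 0.05, against 0.0126% of all genes (1 gene, Gfap). At an unadjusted p under 0.05 there were 2 members lower (Psma5 and Psmc4), against 3.05% of all genes, and 1 higher (Psmd13), against 5.2%. The METH arrays all lay below the Control arrays for 13 of 34 members (38.2%), against 7.19% of all genes, and all above for 1, against 6.48%.

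The subunit genes are bright on these arrays, and bright genes as a whole were lower after METH. Of the 34 members, 19 were in the brightest 20% of the genes tested, and 19 of these 19 had a log2 difference below 0 (median -0.11). In the brightest 20% 69.6% of 1593 genes were below 0 (median -0.06). The METH arrays all lay below Control for 13.7% of these genes and for 8 of the 19 members (42.1%). METH 2 had the lowest mean of the brightest 20% of the 9 arrays, -0.05 log2 units from the 9-array mean. Without METH 2 the core median was -0.08, the cap median -0.11, and 27 of 34 members were below 0. In the brightest 20% without it, 64% of genes and 18 of 19 members were below 0. Some marker lists of other cells differed as well. The summed signal of 10 microglia markers was 48277 to 54276 in Control and 58374 to 60066 in METH, with 10 of 10 log2 differences above 0. That of 8 astrocyte markers was 81234 to 86618 in Control and 89004 to 92559 in METH, with 7 of 8 above 0, and this gap rested on Gfap. Without Gfap (5020 to 6436 in Control, 10957 to 13823 in METH) the sums overlapped, at 76214 to 80182 and 77512 to 80483. For 4 cortical neuron markers, of which 2 were tested, the sums were 31328 to 36136 and 23647 to 29805, and this gap rested on Nrgn. Without Nrgn (29260 to 34832 in Control, 22785 to 27408 in METH) they overlapped, at 1304 to 3800 and 861.6 to 2397. Other lists had sums that overlapped Control. Below 0 were 4 of 6 spiny neuron and 3 of 6 endothelium markers, and 4 of 7 oligodendrocyte markers were above 0. Of these Sox10, Cldn11 and Cnp had all METH arrays above Control, at 0.64 ± 0.10, 0.24 ± 0.08 and 0.11 ± 0.09. The limma adjusted p of Sox10 was 0.175, and 3 of the 7 markers were below 0. In the blood list Hbb-b2, the 1 gene tested, was at 0.69 ± 0.23, and the dim Alas2 lay below Control. The part of brightness or cell makeup in the subunit values was not tested.

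**Figure D1:**
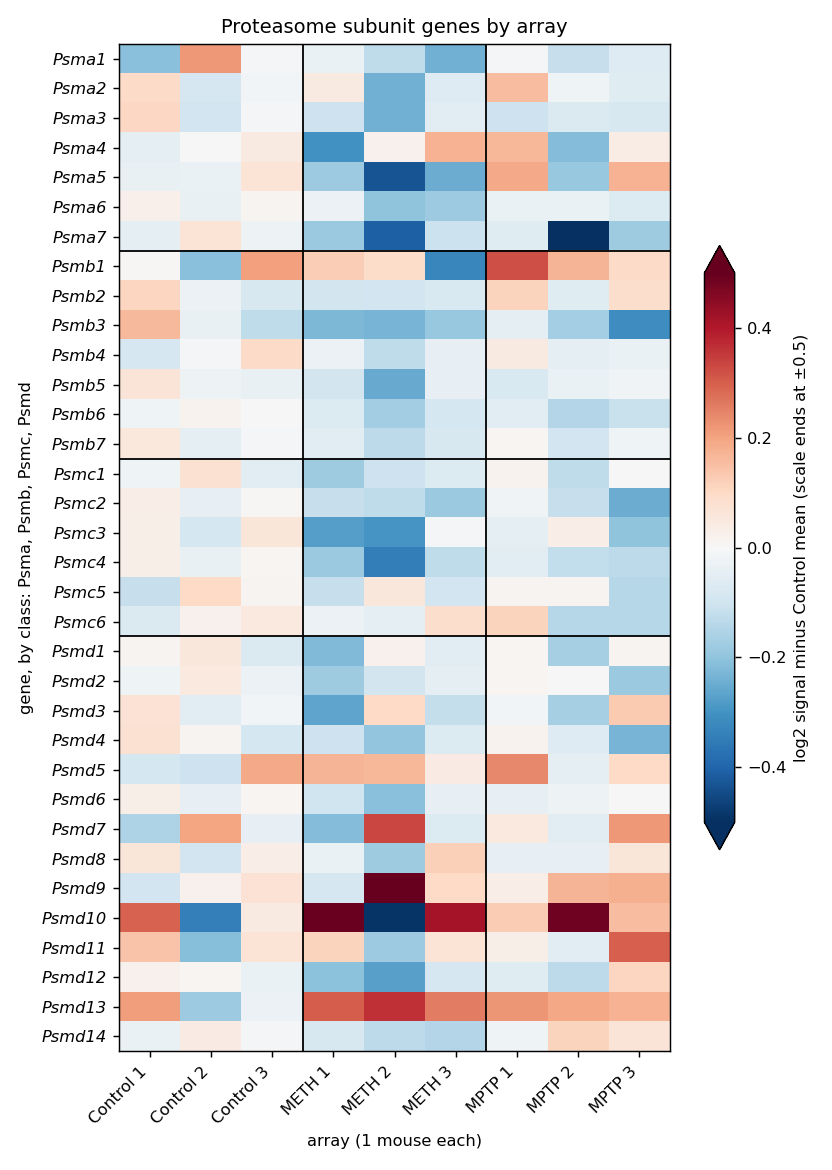
Log2 signal of each of the 34 tested genes (rows, grouped as Psma, Psmb, Psmc and Psmd) on each of the 9 arrays (columns), as the difference from that gene's Control mean, with blue lower and red higher and the colour scale ending at ±0.5. The METH columns are mostly blue in the Psma, Psmb and Psmc blocks, with METH 2 darkest in Psma5 and Psma7, and the row of Psmd13 is red on every METH and MPTP array.

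The outer-ring genes Psma5 and Psma7 gave the lowest core values after METH. In the order of replicates 1, 2 and 3, used throughout, Psma5 had Control signals of 7698, 7712 and 8271, METH signals of 6947, 5847 and 6635, and MPTP signals of 8989, 6917 and 8898. All METH arrays lay below Control, whereas MPTP spanned both sides. The log2 difference of METH from Control was -0.29 ± 0.12 (SE, 0.819-fold, adjusted p = 0.552). Its second bright probe set gave -0.13 ± 0.10, with METH signals of 4414 to 5491 that overlapped Control (5149 to 5549). A further, dim probe set, below the filter, gave 0.48 ± 0.28, and the mean of all 3 turned the sign, to 0.02.

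Psma7, another outer-ring gene, had Control signals of 5626, 6077 and 5699, METH signals of 5101, 4366 and 5386, and MPTP signals of 5560, 3332 and 5124. Both toxin groups lay below Control on every array, and MPTP 2 was far below the rest. Its log2 differences were -0.23 ± 0.17 after METH and -0.35 ± 0.17 after MPTP (adjusted p = 0.731 and 0.873). The other Psma7 probe set varied less and gave -0.12 ± 0.08 for each toxin, with Control signals of 4575 to 4996, METH signals of 4360 to 4385 and MPTP signals of 4269 to 4603. Psma6 had Control signals of 10867, 10408 and 10788, METH signals of 10475, 9283 and 9419, and MPTP signals of 10456, 10442 and 10179, a log2 difference of -0.14 ± 0.08 for METH that was 0.06 with probe sets ending _x_at or _s_at left out. Psma3 had Control signals of 15071, 13132 and 13927, METH signals of 13055, 11866 and 13485, and MPTP signals of 13042, 13333 and 13273, with -0.13 ± 0.09 and -0.09 ± 0.09. METH overlapped Control for both genes. Psma1 had Control signals of 4628, 6217 and 5310, METH signals of 5229, 4891 and 4528, and MPTP signals of 5309, 4931 and 5115, and all groups overlapped. Psma2 and Psma4 had -0.09 ± 0.11 and -0.04 ± 0.14 after METH, and Psma4 was above 0 with quantile normalization, with cyclic loess and without METH 1.

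The 3 catalytic genes of the inner rings varied little and had METH signals just below Control. Psmb6, whose product cuts after acidic residues, had Control signals of 7527, 7737 and 7648, METH signals of 7281, 6761 and 7186, and MPTP signals of 7346, 6891 and 7077. Its spread within groups, 0.04 log2 units, was the smallest of the 34, and no METH or MPTP array reached Control. The log2 differences were -0.11 ± 0.08 and -0.10 ± 0.08 (adjusted p = 0.717 and 0.915). Psmb5, which encodes the chymotrypsin-like site, had Control signals of 10419, 9800 and 9727, METH signals of 9357, 8376 and 9686, and MPTP signals of 9476, 9751 and 9843. METH 3 fell short of the lowest Control array by a small margin, and MPTP overlapped Control. The log2 differences were -0.13 ± 0.09 and -0.04 ± 0.09. Psmb7, which encodes the trypsin-like site, had Control signals of 27136, 25262 and 26060, METH signals of 25105, 23882 and 24750, and MPTP signals of 26310, 24484 and 25773. Here again METH lay below Control and MPTP overlapped it, with -0.09 ± 0.08 and -0.04 ± 0.08, the second at 0.02 with quantile normalization and 1e-04 with cyclic loess.

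Among the inner-ring genes without an active site, Psmb3 had the lowest value after METH, -0.22 ± 0.10 (adjusted p = 0.624). It had Control signals of 4062, 3536 and 3326, METH signals of 3101, 3087 and 3180, and MPTP signals of 3503, 3226 and 2928. All METH arrays lay below Control, and MPTP overlapped it (-0.18 ± 0.10). Psmb1 had Control signals of 7776, 6700 and 8949, METH signals of 8442, 8258 and 6189, and MPTP signals of 9702, 8722 and 8293. Every group overlapped Control, at -0.04 ± 0.15 after METH and 0.20 ± 0.15 after MPTP. The METH value was 0.11 with the mean of its probe sets above the filter. Psmb2 and Psmb4 had -0.09 ± 0.09 and -0.07 ± 0.09 after METH.

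Of the 6 ATPase genes, 5 had a log2 difference below 0 after METH, with a median of -0.13. Psmc4 had Control signals of 4742, 4537 and 4679, METH signals of 4086, 3665 and 4259, and MPTP signals of 4487, 4272 and 4253. Both toxin groups lay below Control on every array. The METH value was -0.22 ± 0.09 (0.859-fold, adjusted p = 0.545) and the MPTP value -0.10 ± 0.09 (adjusted p = 0.934). Its second probe set gave -0.16 ± 0.30 after METH. Psmc2 had Control signals of 11077, 10501 and 10873, METH signals of 9981, 9914 and 9512, and MPTP signals of 10687, 9986 and 9106. METH lay below Control, at -0.14 ± 0.09, and the other Psmc2 probe set gave -0.30 ± 0.12. Psmc3 had Control signals of 7406, 6836 and 7575, METH signals of 6010, 5917 and 7233, and MPTP signals of 7025, 7441 and 6319. METH 3 overlapped Control and the other 2 METH arrays did not, at -0.19 ± 0.11. Psmc1, Psmc5 and Psmc6 had -0.12 ± 0.09, -0.05 ± 0.10 and 0.01 ± 0.10.

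The other cap genes were split. Psmd12, a subunit of the lid, had Control signals of 4987, 4939 and 4797, METH signals of 4259, 4064 and 4624, and MPTP signals of 4701, 4479 and 5281. METH lay below Control, at -0.19 ± 0.09 (adjusted p = 0.632), and MPTP overlapped it, at -0.03 ± 0.09. Psmd14, the lid enzyme that cuts ubiquitin chains off the substrate, had Control signals of 12866, 13563 and 13120, METH signals of 12462, 12031 and 11905, and MPTP signals of 12983, 14238 and 13784. All METH arrays lay below both other groups, with -0.12 ± 0.08 against Control. Psmd4, a ubiquitin receptor of the cap, had Control signals of 6804, 6514 and 6069, METH signals of 6011, 5635 and 6165, and MPTP signals of 6528, 6168 and 5500. All 3 groups overlapped, at -0.12 ± 0.10 after METH and -0.09 ± 0.10 after MPTP, and the mean of all its probe sets gave 0.20 after METH. Its second bright probe set gave 0.08 ± 0.09 after METH.

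The scaffold genes Psmd1 and Psmd2, which hold the base of the cap together, had -0.08 ± 0.10 and -0.11 ± 0.09 after METH. METH lay below Control for Psmd2 and overlapped it for Psmd1. Of the remaining lid genes, Psmd6 had -0.12 ± 0.08, with METH below Control, and Psmd3, Psmd7, Psmd8 and Psmd11 had -0.09 ± 0.12, 0.02 ± 0.15, -0.03 ± 0.10 and 0.00 ± 0.14. The 3 Psmd genes whose products are assembly chaperones and not parts of the finished cap were all above 0 after both toxins, although Psmd10 was at -0.03 after METH without Control 2 and at -0.04 without METH 1. Psmd10, also called gankyrin, had Control signals of 1203, 773.6 and 1010, METH signals of 1380, 696.8 and 1306, and MPTP signals of 1069, 1372 and 1090. METH 2 was its lowest array and METH 1 its highest, at 0.14 ± 0.26. Psmd5 and Psmd9 had 0.13 ± 0.11 and 0.17 ± 0.14, with every group overlapping. None of these values passed the test. Without these 3 genes the cap median after METH was -0.11 over 17 genes.

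**Figure D2:**
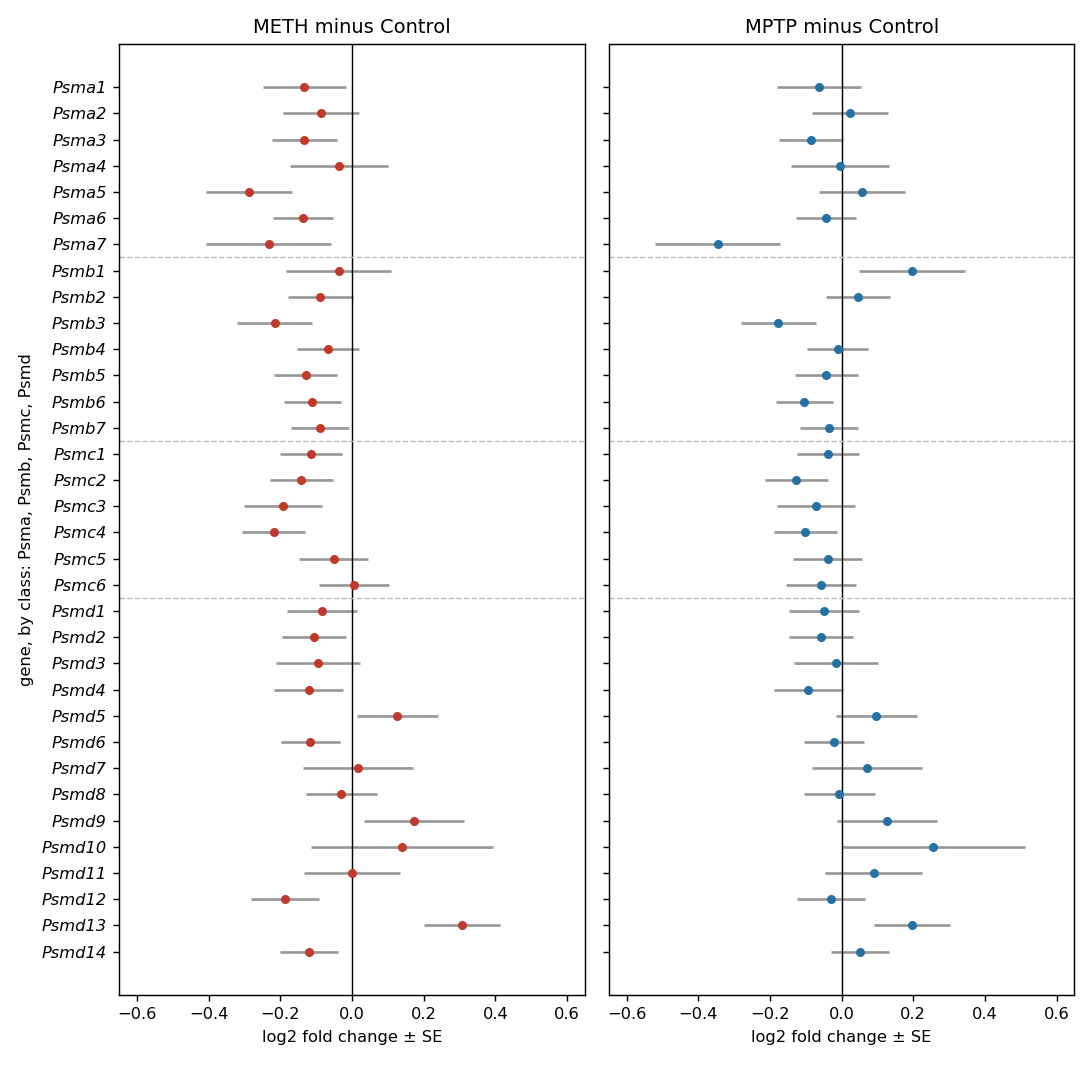
Log2 fold change of each tested gene (points) with its SE from limma (bars) for METH minus Control (left) and MPTP minus Control (right), grouped as Psma, Psmb, Psmc and Psmd and divided by dashed lines. All 14 core points lie left of 0 after METH, Psmd13 lies farthest right at 0.31, and after MPTP the points gather nearer 0, with Psma7 farthest left at -0.35.

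Psmd13, a lid gene, had the highest value of the 34 after METH, and its probe sets gave opposite signs. On its brighter probe set, whose suffix _x_at marks probes that may also match other transcripts, it had Control signals of 2767, 2106 and 2346, METH signals of 2949, 3077 and 2856, and MPTP signals of 2784, 2733 and 2698. METH lay above Control on every array, at 0.31 ± 0.11 (1.24-fold, adjusted p = 0.543), and MPTP had 0.20 ± 0.11. The other probe set had Control signals of 2272, 2845 and 2645, METH signals of 2449, 2080 and 2398, and MPTP signals of 2549, 2643 and 2423. Those ranges overlapped, at -0.16 ± 0.12 after METH and -0.02 ± 0.12 after MPTP. The log2 ratio of the chosen to the other probe set was -0.11 ± 0.36 in Control and 0.36 ± 0.18 in METH (SD, n = 3 each). This difference gave an exact two-sided permutation p = 0.3, where 3 arrays against 3 allow no p below 0.1.

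Other members were read by more than 1 probe set as well. Of the 36 genes, 17 had several, and 14 had at least 1 further probe set above the filter, 17 in all. In METH against Control 10 of these 17 had the sign of the chosen probe set and 7 the opposite, with a median of -0.12. For 5 of the 17 the ratio to the chosen probe set did not overlap between METH and Control. The share over all genes with several probe sets was not computed, so this count has nothing to be set against. Psmb3 was among the 5. Its second probe set had Control signals of 3135, 2644 and 2741, METH signals of 3018, 3244 and 3256, and MPTP signals of 2660, 3225 and 3344, a log2 difference of 0.16 ± 0.12 for METH where the chosen one gave -0.22. The log2 ratio of the 2 was 0.36 ± 0.07 in Control and -0.02 ± 0.06 in METH (SD, n = 3 each). Psmb3 was picked from pairs without overlap, which fixes the exact permutation p at 0.1, so that p adds nothing. The other 4 were further probe sets of Psma5, Psmb1, Psmd4 and Psmd11. For Psmd11 the chosen probe set was at 0.00 ± 0.14 after METH, and the others above the filter at -0.37 ± 0.14, -0.25 ± 0.10 and 0.06 ± 0.09.

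**Figure D3:**
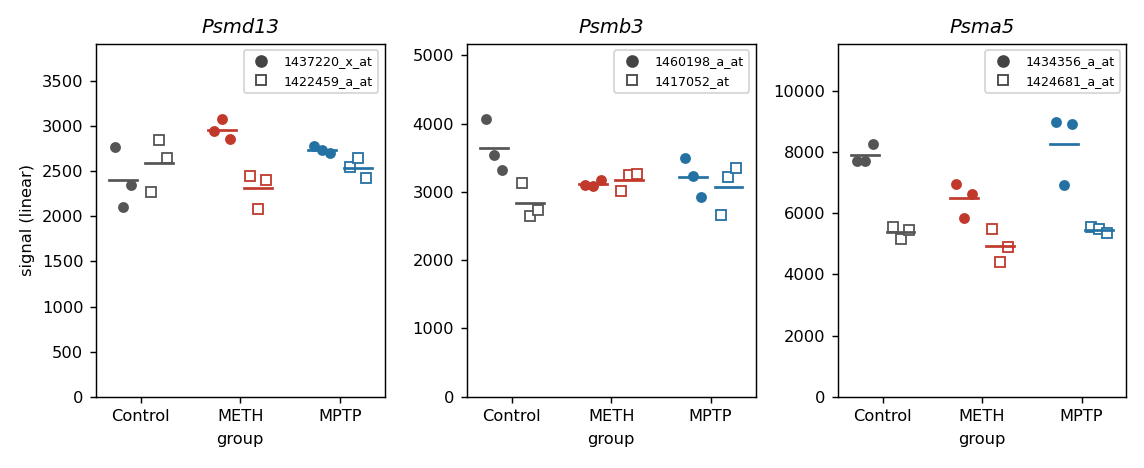
Linear signal of the chosen probe set (filled circles) and a second bright probe set (open squares) of Psmd13, Psmb3 and Psma5 on each array, by group, with lines at the group means. For Psmd13 and Psmb3 the circles and squares move in opposite directions from Control to METH, and for Psma5 both METH means are below those of Control.

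After MPTP the subunit genes lay closer to Control. Of the 14 core genes 10 had a log2 difference below 0 (median -0.04), and of the 20 cap genes 13 (median -0.03), against 48.2% and 0.01 over all genes. With limma 0 of 34 passed, against 0.0126% of all genes, and 0 had an unadjusted p under 0.05, against 1.95% lower and 3.54% higher. MPTP arrays all lay below Control for 3 of 34 members, Psma7, Psmb6 and Psmc4, against 5.14% of all genes, and all above for 0, against 6.13%. In the brightest 20% 62.2% of all genes and 14 of 19 members were below 0. All 6 ATPase genes were below 0, from -0.13 (Psmc2) to -0.04 (Psmc1, which was at 0.01 without MPTP 2), whereas 7 of the 14 Psmd genes were. With quantile normalization 7 of 14 core genes were below 0 and the core median was 0.00. Without MPTP 2, the array with the lowest core score in its group, the core median was -0.02 and the cap median 0.01, with 8 of 14 and 8 of 20 genes below 0. Microglia markers summed to 55370 to 59392 in MPTP, above Control, with 10 of 10 above 0. Astrocyte markers summed to 88069 to 96437, above Control, but to 76719 to 82841 without Gfap, which overlapped it. Cortical neuron markers summed to 25052 to 27754, below Control, and to 962.6 to 2157 without Nrgn, which overlapped it. Oligodendrocyte markers had 7 of 7 log2 differences above 0 and spiny neuron markers 6 of 6 below, with sums that overlapped Control. The part of these cells in the subunit values was not tested.

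The METH and MPTP comparisons share the Control arrays, so their values are given side by side only. Below 0 in both were 22 of 34 members, against 36.4% of all genes. Both toxin groups lay entirely below Control for 3 members, against 2.18% of all genes, and entirely above for 0, against 2.32%. Over the 3 groups together limma's F test passed 0 of 34 members, against 0.0126% of all genes, and 2 (Psma5 and Psmd13) had an unadjusted p under 0.05, against 5.78%.

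METH was compared with MPTP directly in the same fit. Of the 14 core genes 13 were lower in METH than in MPTP (median -0.06) and of the 20 cap genes 16 (median -0.05), against 52.9% of all genes with a median of -0.01. The core value depended on the probe sets used: with the mean of all probe sets of a gene 8 of 13 core genes were lower (median -0.02), and with the mean of those above the filter 10 of 14 (median -0.04). In the brightest 20% 63.7% of genes and 19 of 19 members were lower in METH. None of the 34 passed (0% of all genes did), and at an unadjusted p under 0.05 there was 1 lower, Psma5, against 1.29%, and 0 higher, against 1.56%. Psma5 had -0.35 ± 0.12 (0.787-fold, adjusted p = 0.999). Psmd14 had -0.17 ± 0.08, with all METH arrays below all MPTP arrays. This was so for 3 of 34 members (Psmb2, Psmd6 and Psmd14), against 3.7% of all genes, and the reverse for 1, Psmd13, against 3.39%. The core median was -0.03 without METH 2 and the cap median -0.03 without METH 1.

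A score was taken as the mean log2 deviation of a set of genes from the 9-array mean. Core scores of the Control arrays were 0.07, 0.03 and 0.07, those of METH -0.03, -0.13 and -0.06, and those of MPTP 0.10, -0.07 and 0.02. METH lay below Control on every array, and MPTP ran from above every Control array to within the METH range. Cap scores of the Control arrays were 0.03, -0.02 and 0.02, those of METH -0.05, -0.05 and 0.01, and those of MPTP 0.04, 0.00 and 0.02. Here METH 3 lay within the Control range. The core score less the cap score was 0.04, 0.05 and 0.05 for Control, then 0.02, -0.08 and -0.06 for METH, and 0.06, -0.07 and 0.00 for MPTP. With all 20 cap genes, the core was thus lower relative to the cap than on any Control array on METH 1, METH 2, METH 3, MPTP 2 and MPTP 3. MPTP 1 lay above Control. For METH 1 this rested on the chaperone genes Psmd5, Psmd9 and Psmd10. With these left out, cap scores were 0.05, 0.02 and 0.02 for Control and -0.08, -0.05 and -0.004 for METH. The core was then higher relative to the cap on METH 1 than on any Control array.

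**Figure D4:**
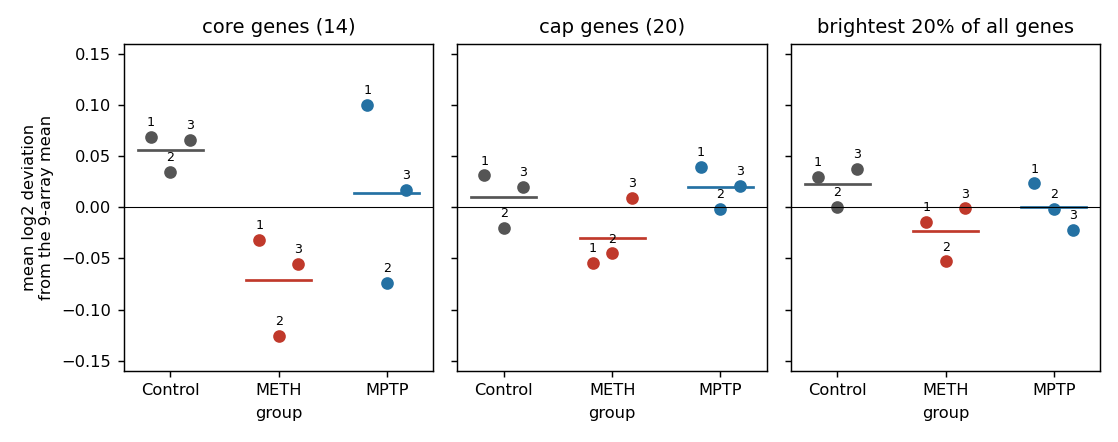
Mean log2 deviation from the 9-array mean (vertical axis) of the 14 core genes, the 20 cap genes and the brightest 20% of all genes tested, 1 point per array with its replicate number and a line at each group mean. Core scores of METH (-0.13 to -0.03) lie below those of Control (0.03 to 0.07), cap scores overlap, and METH 2 is the lowest array in the core and in the brightest 20%.

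The width of the intervals sets what could have been seen. For METH against Control the 95% confidence interval of each single gene lay within a 2-fold change either way for 34 of 34 members, and within 1.5-fold for 32, the exceptions being Psma7 and Psmd10. The same numbers and the same exceptions held for MPTP against Control. Psmb7 had an interval of -0.27 to 0.09 after METH and Psma5 one of -0.56 to -0.02. These intervals are not adjusted for the number of genes.

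The inducible counterparts of the catalytic subunits replace them under interferon, and of these only Psmb10 passed the filter. Psmb8 and Psmb9 did not pass the filter, with 157 to 447 and 317 to 616. Psmb10 had Control signals of 1599, 1153 and 1718, METH signals of 1361, 1132 and 1374, and MPTP signals of 1652, 1780 and 1337, with all groups overlapping, at -0.19 ± 0.17 and 0.10 ± 0.17.

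Genes that serve the particle were read from lists chosen by function, and with limma 0 of them passed in either toxin. At an unadjusted p under 0.05 there were 2 lower after METH (Bag6 and Rad23b) of 43 tested, against 3.05% of all genes, and after MPTP 1 lower (Ube2a) and 1 higher (Psmf1), against 1.95% and 3.54%. Below 0 were 22 of the 43 after METH and 23 after MPTP, against 49.7% and 48.2% of all genes. Of 8 assembly genes 3 were below 0 after METH and 4 after MPTP. The 8, and so the 43, include the members Psmd5, Psmd9 and Psmd10, described above and above 0 after both toxins. Those below 0 were thus all among Pomp, Psmg1, Psmg2, Psmg3 and Psmg4. Pomp, which matures the core, had -0.09 ± 0.08 in each. Psmg1, a chaperone of the outer ring, had -0.12 ± 0.10 after METH. Of 10 regulators and loosely held cap parts 5 were below 0 in each. Zfand5, which activates the proteasome, had -0.22 ± 0.11 and -0.16 ± 0.11, and Sem1, a small lid subunit, -0.13 ± 0.08 and -0.05 ± 0.08. Psmf1, an inhibitor of the core, had 0.18 ± 0.17 and 0.39 ± 0.17. Of 9 genes for ubiquitin and its activation 6 and 5 were below 0. Ube2r2 and Ube2a, which encode ubiquitin-conjugating enzymes, had -0.21 ± 0.10 and -0.15 ± 0.10 after METH and -0.21 ± 0.10 and -0.37 ± 0.10 after MPTP. The related Ube2b had -0.15 ± 0.09 and -0.04 ± 0.09.

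Of 11 shuttle and unfoldase genes 6 and 8 were below 0. Bag6, a chaperone that hands misplaced proteins to the proteasome, had Control signals of 3240, 3077 and 2877, METH signals of 2299, 2715 and 2451, and MPTP signals of 2618, 2874 and 2522. Both toxin groups lay below Control, at -0.30 ± 0.10 and -0.20 ± 0.10 (adjusted p = 0.543 and 0.873). Rad23b, which carries ubiquitin-marked proteins to the cap, had Control signals of 12517, 12629 and 12871, METH signals of 11059, 10772 and 11378, and MPTP signals of 11262, 12478 and 11771. It too lay below Control in both, at -0.20 ± 0.08 and -0.10 ± 0.08. Of 5 genes for the transcription of subunit genes 2 and 1 were below 0. Nfe2l1, which drives subunit genes when proteasome activity is short, had -0.06 ± 0.09 and -0.02 ± 0.09. Nfe2l2, the related factor of the oxidative stress response, had 0.16 ± 0.11 and 0.24 ± 0.11. Mafk, a partner of these factors, had -0.26 ± 0.20 and 0.02 ± 0.20, and Ngly1, which activates the Nfe2l1 protein, 0.09 ± 0.09 and 0.08 ± 0.09.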

How the data were processed

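Striatal RNA of 9 mice was measured on single-colour Affymetrix arrays. The deposited table holds 1 linear intensity per probe set and array. RMA is named, with no version, per the submitters' processing notes, but the wide, linear intensity values do not have its usual form, so how probe sets were summarised is unsettled. Each array had a trimmed mean near 2501, so arrays had been scaled before deposit. The array named in the series' design text is a larger design than the table, whose probe set names matched a smaller design. Gene symbols came from GEO's platform annotation: 20380 probe sets had 1 symbol, 691 several and 1555 none, and 20351 were found by gene ID in RefSeq (GRCm38.p6).

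Values were taken to log2 with no pseudocount or further normalization. Probe sets whose log2 mean over the arrays fell below percentile 40 (9.53) were left out, and the highest-mean probe set stood for a gene, leaving 7964 of 12393 genes. limma 3.58.1 in R 4.3.3 fitted 1 mean per group over 9 arrays (6 residual and 3.93 prior degrees of freedom), with two-sided tests, Benjamini-Hochberg adjustment over all 7964 genes and a threshold of 0.05. Tests were tried on simulated data first. The ± after a log2 difference is the SE of that fit (of a fit over all probe sets for second probe sets); other ± are named. The number of arrays limits the precision. Nothing in the labels gives a scan or extraction batch.

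Members and lists were chosen with earlier results of these data known. Arrays are described one by one for up to 3 genes per class with the smallest p in each toxin comparison, for the catalytic genes and for genes whose toxin arrays all lay on 1 side of Control. The lists give their 2 genes with the smallest p in each comparison, plus Nfe2l1 and Pomp; Bag6 and Rad23b were picked for array values after these were seen, and so were the second probe sets. Same-numbered arrays share only a number. Alternatives were quantile, cyclic loess and median scaling, other filters and probe set choices, array weights, a replicate block, fits of the compared groups alone and each array left out.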

Additional observations from a re-analysis of the deposited data

How the results depend on the processing

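No member passed the test under any alternative run, in any comparison or over the 3 groups together (smallest adjusted p of a member 0.305). The count of all genes past it, 1 after METH and 1 after MPTP, was 0 in both with arrays centred on their medians and with the replicate block, 0 after MPTP with array weights and with only the compared groups, and 2 after MPTP with no filter. Leaving out 1 array gave 0 to 2 in both. Same-numbered arrays did not deviate together (correlations of -0.15 to 0.05), and the replicate block left every median as it was.

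Arrays centred on their medians moved the core median after METH to -0.1836 and the cap medians to -0.1534 after METH and -0.0655 after MPTP, with 64.7% of all genes then below 0 after METH. Quantile normalization gave a cap median of -0.0595 after METH. Leaving out 1 array gave core medians of -0.148 to -0.0823 after METH, -0.0546 to -0.0212 after MPTP and -0.0918 to -0.034 in METH against MPTP. The cap medians were then -0.1099 to -0.0472 after METH (the last without METH 1), -0.0274 to 0.0107 after MPTP (the last without MPTP 2) and -0.0716 to -0.0254 in METH against MPTP.

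Of 86 log2 differences of single genes, the following turned sign, and the cause was not tested. After METH, the mean of all probe sets gave 0.0195 for Psma5, 0.0324 for Psma6, 0.203 for Psmd4 and -0.0053 for Psmc6, and leaving out _x_at and _s_at probe sets 0.0638 for Psma6 and -0.1614 for Psmd13. The mean of the probe sets above the filter, chosen after seeing the data, gave 0.1129 for Psmb1. Quantile normalization gave 0.0144 for Psma4, 0.0593 for Psmd11 and -0.0043 for Psmd7, cyclic loess 0.0041, 0.0433 and -1e-04 for the same genes, array weights 0.0272 for Psmd11, -0.0716 for Psmd7 and -0.0209 for Psmc6, and centred arrays -0.0467 for Psmd7 and -0.0584 for Psmc6. In METH against MPTP the mean of all probe sets gave 0.0545 for Psma5.

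After MPTP, the mean of all probe sets gave -0.035 for Psma5 and 0.0113 for Ube2b, the mean of those above the filter 0.0113 for Ube2b, and leaving out _x_at and _s_at probe sets 0.0165 for Psma6 and -0.0221 for Psmd13. Quantile normalization gave 0.0165 for Psmb7, 0.0083 for Nfe2l1 and -0.0265 for Mafk, cyclic loess 1e-04 for Psmb7 and -0.0368 for Mafk, array weights 0.0011 for Nfe2l1 and -0.0988 for Mafk, and centred arrays -0.0251 for Mafk.

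Leaving out 1 array turned these. After METH the ranges were -0.0975 to 0.0097 for Nfe2l1, -0.1423 to 0.0973 for Psma4, -0.1428 to 0.1066 for Psmb1, -0.0353 to 0.0295 for Psmc6, -0.1419 to 0.1337 for Psmd7, -0.1049 to 0.0428 for Psmd8, -0.0384 to 0.4543 for Psmd10 and -0.1062 to 0.0908 for Psmd11. After MPTP they were -0.1732 to 0.1548 for Mafk, -0.0558 to 0.0219 for Nfe2l1, -0.1674 to 0.0456 for Psma1, -0.0081 to 0.181 for Psma5, -0.0708 to 0.2235 for Psmb10, -0.0656 to 0.0073 for Psmc1, -0.0968 to 0.0219 for Psmd12 and -0.0936 to 0.0037 for Ube2b.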
